A study of Mus musculus with 7 samples.

Results

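The 10 genes followed here were 9 integrin chains that retinal microglia can use for adhesion (Itga4, Itga5, Itga6, Itga9, Itgav, Itgal, Itgb1, Itgb2 and Itgb5) and the hyaluronan receptor Cd44. They were taken as the rows of the expression table carrying these symbols, which gave 10 of the 40743 genes listed, and all 10 passed the filter on low values that left 17496 genes for testing. The RNA came from microglia of adult mice on a C57BL/6J background, free of the Crb1 mutation, that lacked Irf8 in every cell (Irf8-/-) and carried 1 GFP copy at Cx3cr1 (Cx3cr1GFP/+), sorted as CD45low CD11b+ GFP+ Ly6C- Ly6G- cells. Of the 7 libraries, 3 were made without laser treatment and 4 7 days after laser photocoagulation, which ruptures the membrane under the retina and starts choroidal neovascularisation. Each library pooled 3 to 4 mice and held 10000 cells on average. In the lasered mice only the central 70% of the retina was used, so laser and the choice of retinal area cannot be told apart. Wild-type microglia were not analysed here.

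Integrins are pairs of 1 alpha and 1 beta chain that span the membrane, hold the cell to matrix or to other cells, and pass signals to the actin cytoskeleton through talin and kindlin. The beta chain fixes the family and the alpha chain mostly fixes the ligand: the beta chain Itgb1 can pair with the alpha chains of Itga4, Itga5, Itga6, Itga9 and Itgav, Itgb2 is the leukocyte beta chain that pairs with Itgal and with Itgam (CD11b), and Itgb5 pairs with Itgav. CD44 is not an integrin but a separate receptor that binds hyaluronan and osteopontin. Microglia use these receptors when their processes survey tissue and when the cells move towards an injury.

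The promoters of the genes that carry the results below are given first, read from RefSeq on GRCm38.p6 as 250 bases before to 50 bases after each gene's RefSeq start. The tables matched 7 of the 10 genes. Itga5 is shown because it had the largest difference between the groups, Cd44 because it had the next largest, and Itgb5 because it had the highest level. The 3 windows are chr15:103366742-103367041 on the minus strand for Itga5, chr2:102901616-102901915 on the minus strand for Cd44, and chr16:33829415-33829714 on the plus strand for Itgb5. Each window spans the annotated start of a protein-coding gene, Itga5 at chr15:103344286-103366763, Cd44 at chr2:102811141-102901665 and Itgb5 at chr16:33829665-33949338 in GENCODE M21 on GRCm38. Capitals mark every match to any of the 5 motifs searched. Here all of them are the SP1 motif GGGCGG or its reverse complement.

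Itga5 promoter: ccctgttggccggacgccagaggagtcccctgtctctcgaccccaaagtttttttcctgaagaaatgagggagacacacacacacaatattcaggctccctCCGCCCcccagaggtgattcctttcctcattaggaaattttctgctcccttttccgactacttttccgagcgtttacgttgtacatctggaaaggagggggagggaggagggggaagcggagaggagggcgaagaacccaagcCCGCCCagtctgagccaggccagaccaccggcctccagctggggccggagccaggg

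Cd44 promoter: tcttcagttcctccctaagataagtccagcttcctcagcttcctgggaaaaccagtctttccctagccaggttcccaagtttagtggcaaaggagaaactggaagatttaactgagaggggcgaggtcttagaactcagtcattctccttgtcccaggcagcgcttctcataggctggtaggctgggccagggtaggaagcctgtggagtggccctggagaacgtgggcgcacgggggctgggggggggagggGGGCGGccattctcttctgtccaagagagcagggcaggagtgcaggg

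Itgb5 promoter: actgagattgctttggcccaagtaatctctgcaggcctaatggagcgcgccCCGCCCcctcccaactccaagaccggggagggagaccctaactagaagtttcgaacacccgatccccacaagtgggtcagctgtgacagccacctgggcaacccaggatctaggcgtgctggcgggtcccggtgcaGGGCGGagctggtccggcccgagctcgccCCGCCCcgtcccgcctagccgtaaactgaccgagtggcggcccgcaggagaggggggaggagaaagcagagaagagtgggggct

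Each motif was searched on both strands. The SP1 motif GGGCGG was present in 6 of the 7 windows and in 35.6% of all 32817 promoters of this length. The composite motif of PU.1 and an IRF protein (GGAA and GAAA with any 2 bases between them) was in 0 of the 7 windows and in 2.72% of all promoters, and the interferon-stimulated response element (GAAA and GAAA with any 2 bases between them) was in 0 of 7 and in 3.43%. These motifs share letters and can overlap. The PU.1 motif GAGGAAGT was found in 1 window, that of Itgav, against 3.2% of all promoters. The AP-1 motif TGANTCA, which reads the same on both strands, was found in 1 window, that of Itga9, against 7.81%. The RefSeq start used for Itga9 lies inside the gene as GENCODE M21 annotates it (chr9:118606690-118901003, plus strand, with the window at chr9:118711442-118711741), so this match is not at the gene's outermost annotated start.

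The labels were checked first on Irf8. Its row, which also names an overlapping predicted gene, stood at 530, 489 and 507 CPM (the reads of a gene divided by all reads counted in its library and scaled to the same total) in the unlasered libraries and at 463, 465, 475 and 582 CPM in the lasered ones. Gene-level values do not show which part of Irf8 the allele lacks, so they do not check the knockout, and the libraries are called here by their label. The total was 20427558 to 36022954 reads in the unlasered libraries and 37133297 to 45919042 in the lasered ones, so every lasered library was the deeper. The 8 microglia markers were all tested and summed to between 21565 and 27778 CPM, with no gap between the groups. Rod photoreceptor markers summed to between 1454 and 14395 CPM in the unlasered libraries and to between 226 and 801 CPM in the lasered ones. Among them limma called 7 of 8 lower after laser, beside 3.07% of all genes tested. In these bulk libraries fewer cells of a type and less RNA per cell cannot be told apart. The labels name no individual mice, so the p-values measure the spread between pools.

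Unlasered library 3 stood apart for these genes. It had the highest level of the 3 unlasered libraries for 10 of the 10 genes, against 35.1% of all tested genes. The excess was 1.78-fold to 3.55-fold over the mean of the other two for the 6 alpha chains, 1.25-fold to 1.29-fold for the 3 beta chains and 1.19-fold for Cd44. Across all tested genes with an annotated length, this ratio rose with exonic length, from a median log2 ratio of -0.26 in the shortest of 5 equal classes to 0.30 in the longest. The 6 alpha chains have exonic lengths of 4933 to 13978 bases and the 3 beta chains of 3052 to 4081 bases. All 6 alpha chains and the 3 beta chains lay above the median of their own length class, and Cd44 lay just under it. Each result below is therefore also given without this library where that changes it.

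**Figure D1:**
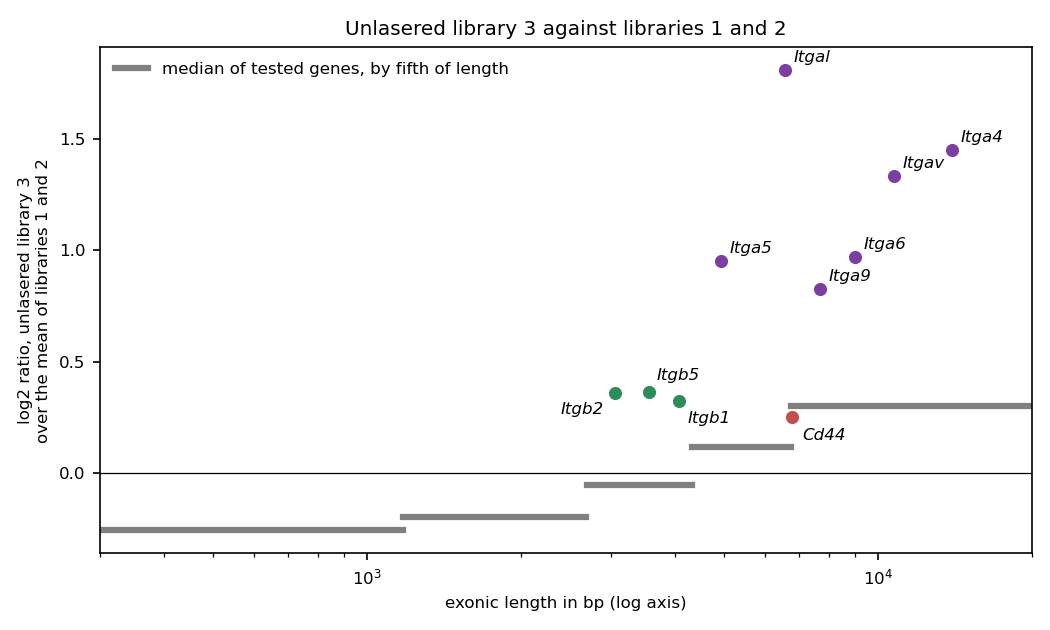
Log2 ratio of unlasered library 3 to the mean of unlasered libraries 1 and 2 for each of the 10 genes (points; purple alpha chains, green beta chains, red Cd44) against exonic length in bases on a log axis. Grey bars give the median of the tested genes in each of 5 length classes (the shortest and longest run beyond the axis); the 6 alpha chains lie between 0.82 and 1.81, above every bar, and Cd44 at 0.25 lies just under the bar of its class.

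Levels of different genes were compared as CPM per kilobase of exonic length. Among the 10 genes Itgb5, the partner of Itgav, was the highest in both groups, at 556 ± 84.2 (SD, n = 3) CPM per kilobase without laser and 669.9 ± 57.2 (n = 4) after laser. Next came Itgb2 at 209.5 ± 33.6 and 225 ± 18.2, then Itgb1 at 145 ± 19.8 and 150.1 ± 22.4, and then the laminin receptor chain Itga6 at 100.5 ± 42.7 and 129 ± 11.1. Itgb5 lay above Itgb2 and Itgb2 above Itgb1 in every library of both groups with ranges that did not overlap. The ranges of Itgb1 and Itga6 overlapped in both groups, although Itgb1 was the higher in each of the 7 libraries. Counting the longest transcript in place of all exons put Itga6 above Itgb1 in both groups and above Itgb2 after laser, so these orders depend on the length used. Below Itga6 the levels dropped. Without laser Itga9, Cd44, Itgav, Itgal, Itga4 and Itga5 followed, from 20.9 down to 5.05 CPM per kilobase, and the range of each overlapped that of the next. After laser Cd44 came next after Itga6 at 38.5 ± 19.6, with a range that overlapped that of Itga9 at 29.5 ± 5.40. The lowest place changed hands: Itga4 was above Itga5 in 3 of 3 unlasered libraries, and Itga5 was above Itga4 in 4 of 4 lasered ones.

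**Figure D2:**
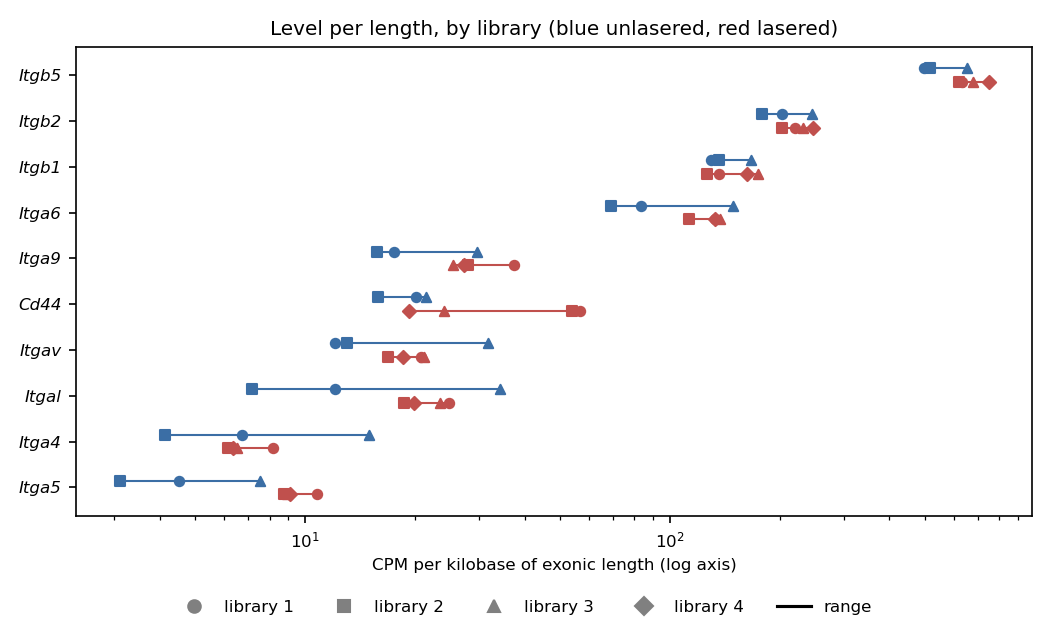
Level of the 10 genes in CPM per kilobase of exonic length (log axis) in each library; marker shape gives the library number, and lines span the lowest to the highest library of the unlasered (blue) and lasered (red) group. Itgb5 lies highest in both groups, and at the bottom Itga4 and Itga5 change places between them.

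The 3 beta chains and the 6 alpha chains were compared between the groups together with Cd44, asking whether the adhesion receptors of these microglia differ after laser. By limma with Benjamini-Hochberg adjustment over all 17496 genes, 0 of the 10 genes passed an adjusted p of 0.05. Of all genes tested 6.93% passed, 3.86% higher and 3.07% lower after laser. At an unadjusted p under 0.05, 3 of the 10 were higher and 0 lower (Itga5, Itga9 and Cd44), beside 11% of all genes higher and 22.7% in either direction. The edgeR quasi-likelihood test on the recovered reads called 0 of the 10 (7.24% of all genes, 3.78% higher), and DESeq2 called 2, Itga5 and Cd44, both higher (13.3% of all genes, 6.73% higher). With median-of-ratios scaling in place of the deposited totals limma called 1, Itga5, beside 5.31% of all genes called higher. The median log2 difference of the 10 genes was 0.36, against -0.014 for all genes tested, and 9 of the 10 were above 0, against 48.4% of all genes. The median of the 10 was 0.14 without unlasered library 2 and 0.69 without unlasered library 3.

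**Figure D3:**
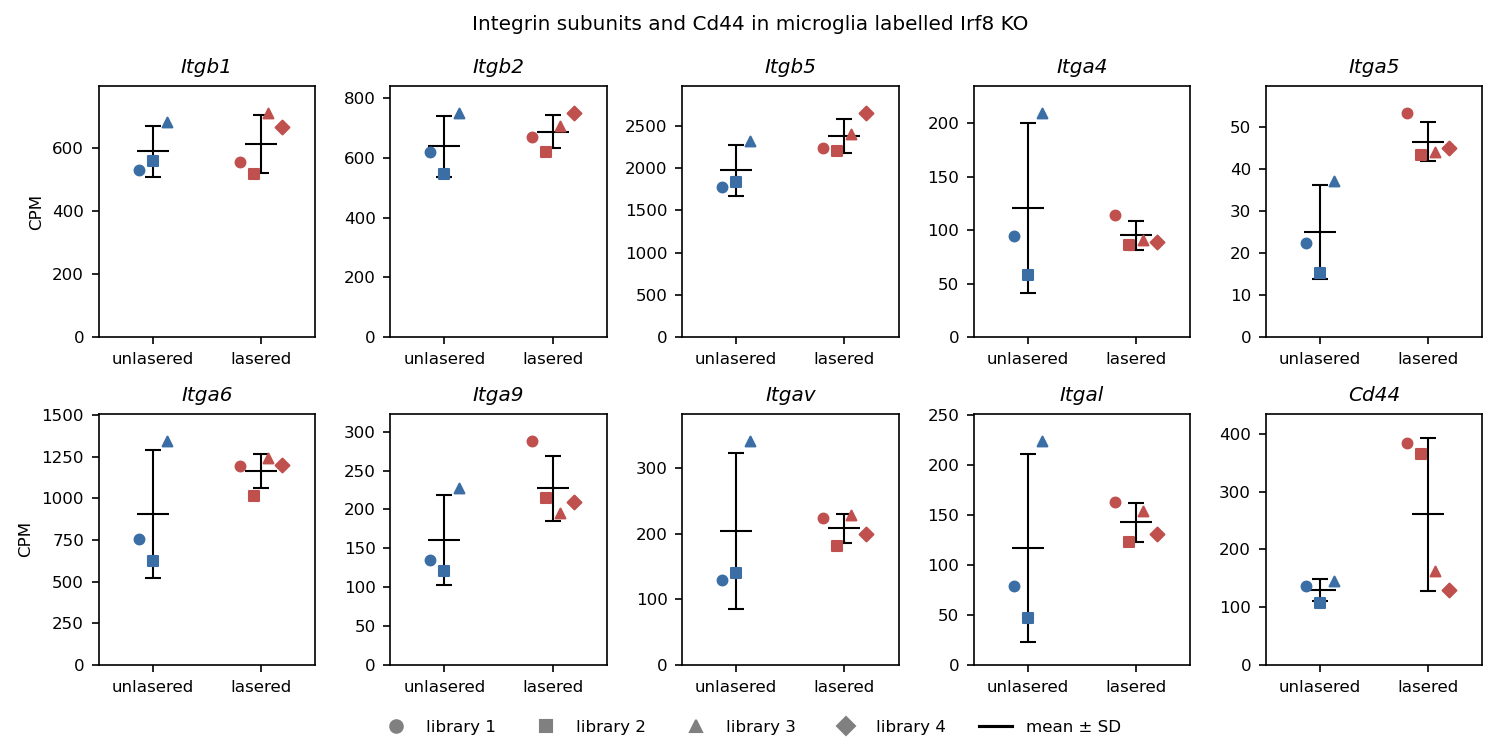
CPM of the 10 genes in the 3 unlasered (blue) and 4 lasered (red) libraries on linear axes from 0; marker shape gives the library number, and the bars show the mean ± SD. Itga5 is the only panel in which the groups do not overlap, unlasered library 3 (blue triangle) is the highest unlasered point in every panel, and Cd44 is high in lasered libraries 1 and 2.

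The beta chains varied little. Itgb1, the beta chain of the matrix receptors, was at 530, 558 and 682 CPM without laser and at 556, 517, 712 and 666 CPM after laser. The groups overlapped throughout, with a log2 difference of 0.05 ± 0.15 (SE) and a 95% interval of 0.820 to 1.31 for the fold. Itgb2, the leukocyte beta chain, was at 621, 547 and 750 CPM without laser and at 671, 621, 708 and 751 CPM after laser. Its groups overlapped as well, and its fold of 1.08 had an interval of 0.878 to 1.33. Itgb5 was at 1773, 1834 and 2318 CPM without laser and at 2245, 2210, 2410 and 2656 CPM after laser. Only unlasered library 3 reached into the lasered range, and the log2 difference was 0.28 ± 0.13 (limma adjusted p = 0.236). The coefficient of variation of the beta chains was 13.7% to 16.0% without laser and 8.06% to 14.9% after laser.

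The alpha chains varied more among the unlasered libraries, with coefficients of variation of 35.8% to 80.7%, than among the lasered ones, with 8.63% to 18.3%. The unlasered values include library 3, which was 1.78-fold to 3.55-fold over the mean of libraries 1 and 2. Those libraries lay close for Itgav (130 and 140 CPM) and further apart for Itgal (79.5 and 47.1 CPM). Coefficients without library 3 were not computed. Itga5, whose chain forms the main fibronectin receptor with that of Itgb1, was at 22.3, 15.3 and 37.2 CPM without laser and at 53.3, 43.3, 44.1 and 45.0 CPM after laser. All 4 lasered libraries lay above all 3 unlasered ones, and Itga5 was the only 1 of the 10 genes whose groups did not overlap. Of all genes tested 10.4% were separated in this way towards higher, 10.7% towards lower and 21% in either direction. Its log2 difference was 0.95 ± 0.26, or 1.94-fold with a 95% interval of 1.29 to 2.90, with an unadjusted p of 0.00480 and an adjusted p of 0.0602 in limma. The adjusted p was 0.0732 in edgeR and 0.0112 in DESeq2.

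Itga6, a laminin receptor chain, was at 753, 623 and 1346 CPM without laser and at 1196, 1016, 1241 and 1199 CPM after laser. The lasered libraries lay above unlasered libraries 1 and 2 and below unlasered library 3, and the log2 difference was 0.43 ± 0.23 (limma adjusted p = 0.309). Itga9, which binds tenascin C and osteopontin, was at 135, 121 and 227 CPM without laser and at 288, 215, 196 and 210 CPM after laser. Again only unlasered library 3 lay within the lasered range, with a log2 difference of 0.54 ± 0.23 (limma adjusted p = 0.199). Itga4, which binds VCAM1 and fibronectin, was at 94.1, 57.9 and 209 CPM without laser and at 114, 85.9, 91.0 and 88.6 CPM after laser. The lasered libraries lay inside the wide unlasered range, and the log2 difference was -0.15 ± 0.36 (limma adjusted p = 0.847).

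Itgav, whose chain recognises vitronectin and other matrix proteins, was at 130, 140 and 342 CPM without laser and at 224, 182, 228 and 199 CPM after laser. Itgal (CD11a), which with Itgb2 binds ICAM on other cells, was at 79.5, 47.1 and 224 CPM without laser and at 163, 123, 154 and 131 CPM after laser. For both genes every lasered library lay between unlasered library 3 and the other two unlasered libraries. The log2 differences were 0.17 ± 0.30 for Itgav and 0.58 ± 0.43 for Itgal (limma adjusted p = 0.787 and 0.472).

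Without unlasered library 3, limma called 5 of the 10 genes, all alpha chains and all higher after laser. Of the 17073 genes tested then, 4.77% were called higher. The 5 were Itga5 with a log2 difference of 1.28 (adjusted p = 0.0151), Itgal with 1.20 (0.0255), Itga9 with 0.81 (0.0326), Itga6 with 0.76 (0.0212) and Itgav with 0.61 (0.0329). This library was singled out from the values of these same genes, as the highest unlasered library for 10 of the 10. Leaving it out must therefore raise their log2 differences, so these calls are not separate support. The share over all genes is not a like comparison, since library 3 was the highest for 35.1% of them. Unlasered library 2 was the lowest library for Itga5, Itgal, Itga9 and Itga6, but not for Itgav. Leaving it out moved the values of these 5 genes the other way. They came to 0.66 for Itga5, 0.082 for Itgal, 0.36 for Itga9, 0.20 for Itga6 and -0.025 for Itgav, none of them called. The remaining alpha chain, Itga4, changed sign to 0.35 without unlasered library 3 (adjusted p = 0.309) and was not called. None of the beta chains was called in that fit (log2 differences of 0.16 for Itgb1, 0.23 for Itgb2 and 0.40 for Itgb5), nor was Cd44 with 0.94. With the trend of each library against exonic length taken out, an alternative added after the data were seen, Itga5 alone of the 10 was called, with a log2 difference of 0.98 (limma adjusted p = 0.0415). Of all 17349 genes tested in that setting, 6.5% were called in either direction.

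**Figure D4:**
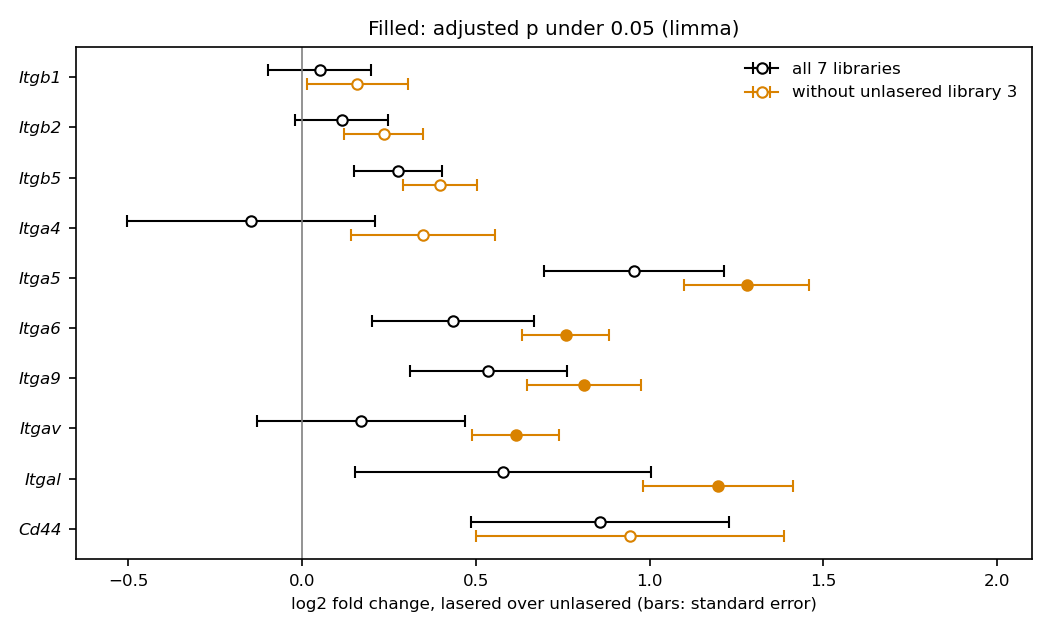
Log2 fold change, lasered over unlasered, of the 10 genes in all 7 libraries (black) and without unlasered library 3 (orange), with the standard error as bars; filled points have a limma adjusted p under 0.05. No point is filled in black and 5 alpha chains are filled in orange, while Itga4 crosses 0.

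The balance between chains was then followed within each library, where the total depth cancels. The summed level per kilobase of the alpha chains that can pair with Itgb1 (Itga4, Itga5, Itga6, Itga9 and Itgav), divided by that of Itgb1, was 0.956, 0.768 and 1.39 without laser and 1.54, 1.36, 1.14 and 1.19 after laser. The groups overlapped through unlasered library 3 (two-sided exact permutation p = 0.229, adjusted over the 3 ratios 0.6, where the smallest p this design allows is 0.0571). The ratio of Itgal to Itgb2 was 0.0795 ± 0.0525 and 0.0967 ± 0.0136 (exact permutation p = 0.4), and that of Itgav to Itgb5 was 0.0328 ± 0.0139 and 0.0291 ± 0.00374 (exact permutation p = 0.8). All 3 ratios overlapped between the groups, and with this number of libraries the test could not reach 0.05 for any of them. Without unlasered library 3 the log2 difference of the Itgal to Itgb2 ratio rose from 0.47 to 0.98 and the groups no longer overlapped (exact permutation p = 0.133, the smallest 2 against 4 libraries allow), and without unlasered library 2 it was 0.077. That of the alpha chain sum to Itgb1 went from 0.37 to 0.60 without unlasered library 3, and its groups no longer overlapped either (exact permutation p = 0.133). Without unlasered library 2 it was 0.17. That of the Itgav to Itgb5 ratio went from -0.10 to 0.22 without unlasered library 3, and its groups still overlapped. Within that alpha chain sum Itga6 held 65.6% ± 1.6 (SD) without laser and 66.4% ± 2.7 after laser. The share of Itga5 was 3.63%, 2.95% and 3.24% without laser and 5.15%, 5.10%, 4.47% and 4.70% after laser. This share did not overlap between the groups, including unlasered library 3. The share of Itga4 was 5.26% ± 1.3 without laser and 3.50% ± 0.30 after laser. All 4 lasered libraries lay below all 3 unlasered ones, but the groups almost touched. The lowest unlasered share was 3.94% (library 2) and the highest lasered share 3.90% (library 1). The shares of Itga6, Itga9 and Itgav overlapped between the groups. Itga9 held 13.9% ± 1.2 without laser and 15.2% ± 2.3 after laser, and Itgav held 11.9% ± 2.0 and 9.98% ± 0.47. These shares depend on the length used. Per kilobase of longest transcript, Itgav lay above Itga9 without laser (28.9 against 22.9 CPM) and below it after laser (29.5 against 32.4 CPM). The shares sum to 100% within a library and were not tested.

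Cd44 had a coefficient of variation of 15.2% without laser and 50.9% after laser, so its spread lay mostly among the lasered libraries. It was at 136, 108 and 145 CPM without laser and at 385, 365, 163 and 131 CPM after laser. Lasered libraries 1 and 2 were above every unlasered library, lasered library 3 was just above and lasered library 4 lay inside the unlasered range. The log2 difference was 0.86 ± 0.37, or 1.81-fold with a 95% interval of 1.02 to 3.23 (limma adjusted p = 0.209). Without lasered library 1 it was 0.62, and without lasered library 4 it was 1.14 (limma adjusted p = 0.407 and 0.0844).

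Other transcripts had the same 2 lasered libraries high. Of the tested genes with a mean of at least 10 CPM, those closest to Cd44 over the 7 libraries, by the root mean square distance of their centred log2(CPM + 1) values, were Gm4750 (0.125), the beta-actin gene Actb (0.126) and Gm15425 (0.129). Actb was at 1418, 1034 and 1185 CPM without laser and at 3167, 3461, 1431 and 1311 CPM after laser. Those closest to Itga5 were Trio (0.104), Cdk14 (0.113) and Plekhm1 (0.146), and its closest relative among the 10 was Itga9 (0.247).

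The MHC class II gene H2-Ab1 was at 33.0, 9.49 and 79.4 CPM without laser and at 858, 1497, 114 and 28.6 CPM after laser. The dendritic cell markers, of which 5 of 5 were tested and 1, Itgae, is itself an integrin chain, summed to between 24.8 and 48.0 CPM without laser and to 129, 132, 42.4 and 33.5 CPM after laser. The monocyte markers, of which 4 of 6 were tested, summed to between 21.7 and 67.5 CPM without laser and to 134, 182, 32.8 and 11.4 CPM after laser, with Chil3 at 0 in at least 1 library. Lasered libraries 1 and 2 were thus the highest for the sums of both marker lists and for Cd44. Single dendritic cell markers differed. After laser Ccr7 was at 74.8, 68.5, 5.34 and 3.10 CPM, much of the sum in libraries 1 and 2. Itgae was at 11.0, 8.80, 11.2 and 2.75 CPM, highest in library 3. The sort had removed Ly6C+ and Ly6G+ cells. The monocyte gene Ly6c2 was at 0.392, 0.409 and 0.527 CPM without laser and at 0.884, 0.891, 0.0436 and 0.108 CPM after laser. Lasered libraries 1 and 2 were again the highest, at 39 and 40 reads, and the lowest value stands for 2 reads. The part of dendritic cells and monocytes in the level of Cd44 was not tested.

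**Figure D5:**
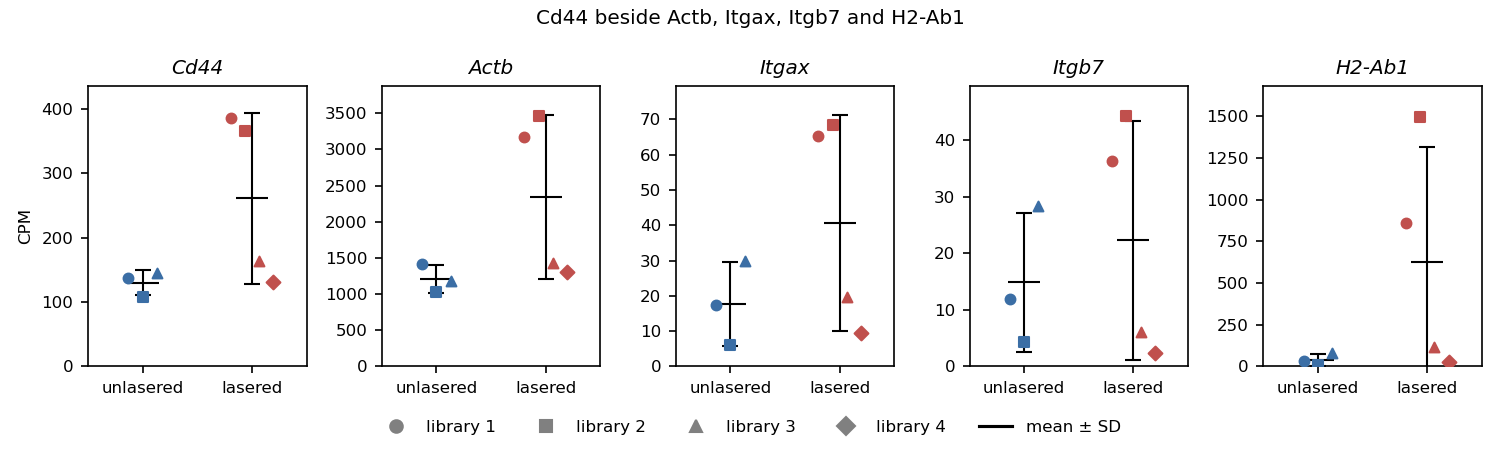
CPM of Cd44, Actb, Itgax, Itgb7 and H2-Ab1 in each library (blue unlasered, red lasered, marker shape by library number) with mean ± SD, on linear axes from 0; the lower SD bars of H2-Ab1 run below 0 and end at the axis. In all 5 panels lasered libraries 1 and 2 lie above lasered libraries 3 and 4.

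Of the 17 other integrin chains, 10 were tested, and limma called 0 of them, beside 6.93% of all genes. At an unadjusted p under 0.05 limma had 2, both lower, while edgeR called 0 and DESeq2 called 1 lower. Without unlasered library 3 limma called 2 of them higher, beside 4.77% of all genes in that fit. These were Itgam with a log2 difference of 0.51 (adjusted p = 0.0468) and Itgb3 with 0.82 (adjusted p = 0.0454). Library 3 was the highest unlasered library for both, so leaving it out must raise their log2 differences. The 2 calls are therefore not separate support, and the share over all genes is not a like comparison. Itgam (CD11b), the partner of Itgb2 and a marker used in the sort, was the highest of the 17 other integrin chains. It was at 340, 379 and 584 CPM without laser and 533, 448, 562 and 514 CPM after laser. Its row also names another gene and an antisense transcript, so its level is uncertain. Itgb3, another partner of Itgav, was at 20.8, 18.6 and 38.4 CPM without laser and 46.5, 31.0, 35.1 and 31.7 CPM after laser, with unlasered library 3 again the highest of its group. Itgax (CD11c), also a partner of Itgb2, was at 17.5, 5.96 and 29.8 CPM without laser and 65.4, 68.3, 19.6 and 9.45 CPM after laser. Itgb7, a partner of Itga4, was at 11.9, 4.26 and 28.4 CPM without laser and 36.4, 44.2, 6.16 and 2.34 CPM after laser. For both, lasered libraries 1 and 2 were the highest of all 7.

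Of the 25 listed ligands of these receptors 14 were tested, and 2 rose and 3 fell after laser. Of all genes tested 3.86% rose and 3.07% fell. Spp1, which encodes osteopontin, a ligand of CD44 and of several of the integrins, was at 44.9, 49.2 and 62.7 CPM without laser and at 1421, 874, 1385 and 487 CPM after laser. The groups lay far apart, with a log2 difference of 4.18 ± 0.34 (limma adjusted p = 0.00150). Fn1, which encodes fibronectin, the ligand of the Itga5 chain, was at 41.1, 65.6 and 288 CPM without laser and at 776, 525, 593 and 248 CPM after laser. Its groups overlapped, and its log2 difference of 2.41 ± 0.61 was near the threshold (limma adjusted p = 0.0485). It was not called by edgeR (adjusted p = 0.109) or DESeq2 (0.0650), nor by limma with no filter on low values (0.110) or with a filter at a mean of 10 reads (0.0614). Vtn, which encodes vitronectin, a ligand of the Itgav chain, was at 31.6, 268 and 82.4 CPM without laser and at 12.1, 7.51, 12.7 and 2.29 CPM after laser, and its log2 difference was -3.42 ± 0.70 (limma adjusted p = 0.0261). Lama2, a laminin chain, was at 49.5, 7.94 and 22.5 CPM without laser and at 3.63, 4.50, 3.85 and 5.33 CPM after laser, with a log2 difference of -2.06 ± 0.48 (limma adjusted p = 0.0383). On leaving out 1 library at a time the limma adjusted p ran from 0.0122 to 0.133 for Fn1 (over the threshold without unlasered library 1 or 2 or lasered library 1, 2 or 3), from 0.0165 to 0.0695 for Vtn (over it without unlasered library 2 or 3 or lasered library 2 or 3) and from 0.00950 to 0.0941 for Lama2 (under it only without unlasered library 2). For Spp1 it stayed at 0.0116 or below. The rows of Spp1 and Lama2 also hold reads that could belong to an overlapping predicted gene. The summed rod markers given above were also lower in every lasered library than in any unlasered one. In unlasered libraries 1, 2 and 3 they summed to 1454, 14395 and 4325 CPM. Vtn was at its highest and Lama2 at its lowest unlasered level in library 2. The part of rod RNA in the lower levels of Vtn and Lama2 was not tested.

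Inside the cell, 36 of 39 listed linkers and activators were tested, and 2 rose and 0 fell. Of all genes tested 3.86% rose and 3.07% fell, so this count was near the share over all genes. Fyb, an adaptor of integrin activation, was at 248, 222 and 261 CPM without laser and at 317, 370.5, 321 and 346 CPM after laser, with a log2 difference of 0.47 ± 0.11 (limma adjusted p = 0.0429). Actn1, which encodes an actinin that ties integrins to actin, was at 4.45, 4.76 and 6.77 CPM without laser and at 14.9, 9.27, 10.8 and 10.1 CPM after laser, with a log2 difference of 0.95 ± 0.22 (limma adjusted p = 0.0364). The rows of Fyb and Actn1 also name another gene, and on leaving out 1 library at a time the calls of both were lost except without unlasered library 3 (limma adjusted p up to 0.126 for Fyb and 0.0971 for Actn1). Unlasered library 3 was the highest unlasered library for 27 of the 36 linkers. Without it 6 of the 36 rose and 0 fell, beside 4.77% of all genes called higher in that fit. Leaving it out must raise the log2 differences of those 27, so this count is not separate support. The share over all genes is not a like comparison, since library 3 was the highest for 35.1% of them. Talin, encoded by Tln1 and chosen after its values were seen, was at 164, 202 and 654 CPM without laser and at 382, 294, 326 and 401 CPM after laser. As for Itgav and Itgal, every lasered library lay between unlasered library 3 and the other two unlasered libraries.

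Of 20 surface partners of integrins, all tested, 0 rose and 1 fell, beside 3.86% and 3.07% of all genes. This was Sdc4, the syndecan that binds fibronectin beside the Itga5 chain, at 101, 112 and 95.2 CPM without laser and 48.6, 62.9, 43.8 and 44.0 CPM after laser (log2 difference -1.04 ± 0.16, limma adjusted p = 0.0106). Of the 24 genes listed for CD44 and hyaluronan, 23 were in the table and 15 were tested. Among these 1 rose and 0 fell, beside 3.86% and 3.07% of all genes. This was Mmp14, a membrane protease that cuts CD44, at 60.7, 67.5 and 66.1 CPM without laser and 110.1, 130, 120 and 109 CPM after laser (log2 difference 0.84 ± 0.12, limma adjusted p = 0.00890). For Sdc4 and Mmp14 no lasered library reached the unlasered range, unlasered library 3 included.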

How the data were processed

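RNA was sequenced from 7 pools of sorted retinal microglia (3 unlasered, 4 lasered). The authors trimmed reads with cutadapt, removed duplicates, mapped with Bowtie2 to GRCm38 and counted genes with HTSeq. The deposited values are headed TPM, but within a library they were whole multiples of 1 step, so they are CPM, and whole reads were recovered (99.94% to 100% of values whole within 6e-05 CPM). CPM were tested as log2(CPM + 1) with limma 3.58.1 (trend, robust; R 4.3.3) on genes that reached 1 CPM in 3 or more libraries, adjusted by Benjamini-Hochberg. A fold change on this scale understates that of low genes. Ratios between chains were tested by exact permutation (scipy 1.17.1, two-sided). edgeR 4.0.16 and DESeq2 1.42.0 on recovered reads, other scalings, filters and pseudocounts, thinning, a replicate block and leaving out each library were alternatives. A count of 3 reads equals 0.0653 to 0.147 CPM. This floor covers counting error only, since reads are not independent molecules. Exon lengths came from GENCODE M21 on GRCm38, which matched 99.1% of genes. Rows naming more than 1 gene (4492 of 40743) cannot be split, and none is among the 10 genes. The genes and lists were chosen with earlier results of these data known. Of the other lists, up to 4 called genes were named by size of change, provided that 1 group averaged 10 CPM or more, or the 2 highest where none was called. Itgam, Itgax, Itgb3, Itgb7, Irf8, Fn1 and Spp1 were always named. The nearest genes were printed for the 2 genes with the largest log2 difference. The limma script was tested on simulated data.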

Additional observations from a re-analysis of the deposited data

Results flagged for a closer look

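Of 26 levels tested among the 4 lasered libraries, 2 had a library standing well away from the remaining ones, and about 1 in 20 would do so by chance. Itga5 was 53.3 CPM in lasered library 1 against 43.3 to 45.0 CPM in the others, a gap of 0.833 of the whole range. Irf8 was 582 CPM in lasered library 4 against 463 to 475 CPM in the others, a gap of 0.897 of the range. Levels in the 3 unlasered libraries were not tested in this way.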

How the results depend on the processing

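The log2 differences of the 10 genes were recomputed under 17 alternatives. Of these 170 values 156 kept their sign and their side of the threshold, 9 passed the threshold and 5 changed sign. They are not separate checks. Changing the filter or leaving out rows that name more than 1 gene cannot move a log2 difference, only its p-value. The replicate block gave the same log2 differences as leaving out lasered library 4. Genes called over the whole table (1213) came to 385 with no filter on low values, 2318 by DESeq2 and 3 with a replicate block, and to between 264 and 1248 on leaving out 1 library. Genes of the 10 called higher (0) came to 1 with median-of-ratios scaling, 2 by DESeq2, 1 with the length trend removed, and between 0 and 5 on leaving out 1 library, the 5 without unlasered library 3. Leaving out 1 library at a time turned the sign of Itgav (-0.080 to 0.61, negative without unlasered library 1 or 2), Itgb1 (-0.026 to 0.16, negative without unlasered 1 or lasered 3), Itga4 (-0.57 to 0.35, positive without unlasered 3), Itgb7 (-0.46 to 0.87, negative without unlasered 2, lasered 1 or lasered 2) and the log2 difference of the Itgav to Itgb5 ratio (-0.28 to 0.22, positive without unlasered 3). Irf8 became 0.041 with median-of-ratios scaling. The cause was not tested. Replicate numbers gave no sign of pairing: deviations of same-numbered libraries correlated at -0.18, -0.13 and -0.02. The replicate block called 0 of the 10 genes, as did the main fit, so that count does not bear on pairing. Leaving out rows that name more than 1 gene was run for whole rows (1025 called) and leaves the ratios as they are, since the 10 genes have no such rows. Each of the 10 genes had at least 455 reads in every library, while 7 of the 17 other integrin chains lay below the filter.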
